A study of Drosophila melanogaster with 9 samples.

Results

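The genes described here are those of Drosophila melanogaster whose transcribed span holds no intron. They were chosen as the genes without an RNA-class prefix (a colon in the name) whose length was equal in both deposited count tables, one of which gave the exonic length and the other the whole gene span. The rule took 2584 of the 17806 named genes, against 11785 other genes without a colon. Of the 2584, 2498 were found by name in the Ensembl BDGP6.54 annotation, and 2358 of those (94.4%) had 1 exon in every annotated transcript. By that annotation 2080 were protein-coding, 259 non-coding and 159 pseudogenes, and by name 261 were microRNA genes. The median length was 911.5 nt, against a median exonic length of 1914 nt and a median span of 2574 nt for the other genes.

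A messenger RNA without introns is never spliced, so it does not receive the exon junction complex that splicing leaves behind, and it reaches the cytoplasm through adaptors that act without splicing. Intronless genes are often short and are made quickly on demand, as are the Hsp70 chaperones and the bHLH repressors of the Enhancer of split complex. In the fly gut they include many trypsin-like and Jonah proteases of the enterocytes, and escargot (esg), a Snail-type repressor that keeps progenitors undifferentiated. Swm is a nuclear RNA-binding protein with an RNA recognition motif and zinc finger domains.

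Libraries of 2 kinds were compared. The first were total RNA of GFP-positive progenitors sorted from the intestines of 100 adult females per replicate, with 3 libraries of flies labelled swm RNAi (treatment, Swm knocked down; titled swm) and 3 of controls (genotype WT, titled esgTS). The second were RNA recovered with Swm-coated beads from whole dissected intestines (Swm IP, 2 libraries) and RNA of the total lysate (input, 1 library), all of genotype WT and all intestinal cells. In flies esgTS names a heat-released driver that is active where esg is expressed, in the progenitors; the age, the temperature and the days of RNAi are not stated in the labels, and no mock precipitation was analysed here. The labels do not say whether the replicates are separate crosses. The p-values therefore reflect only how far these libraries differ, which may be technical.

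Total counts were 2451369 and 8497190 in the Swm IP libraries and 4615623 in input, between 14627251 and 19399264 in the swm RNAi libraries, and between 19428033 and 19962224 in control. In the libraries labelled swm RNAi the swm transcript stood at 159, 137 and 135 counts scaled to library size (CPM), against 159, 116 and 157 CPM in control, a log2 fold change of -0.0036 (SE 0.17, edgeR quasi-likelihood adjusted p = 0.998). The transcript level therefore did not separate the labels, and protein was not measured. The 8 progenitor markers summed to 5692, 6646 and 6695 CPM with swm RNAi and 6469, 4501 and 5057 CPM in control. Among these markers are the intronless genes esg, E(spl)m3-HLH and E(spl)malpha-BFM, which are described below. In bulk samples, fewer cells of a type and less RNA per cell cannot be told apart.

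Of the 2584 intronless genes, 661 passed the filter on low counts in the immunoprecipitation table and 904 in the RNA-seq table, 560 passed in both and 1579 in neither. No count in any library was recorded for 1371 of them in the immunoprecipitation table and for 1046 in the RNA-seq table. Of the 261 microRNA genes, 3 and 24 were tested in these tables.

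Whether an intronless gene could be counted in the immunoprecipitation table depended on where it lies. Of the annotated ones, 828 lay whole inside another gene and 1281 overlapped none. Among those inside another gene, 217 had at least 100 counts over the progenitor libraries, and 217 of these (100%) had 0 counts in the Swm IP and input libraries alike. This held for 114 of 114 with the surrounding gene on the same strand, for 98 of 98 with it on the opposite strand and for 5 of 5 with genes on both. Among those that overlapped a gene in part it was 4 of 206 (1.94%), and among those that overlapped none 2 of 362 (0.552%). miranda (mira), which encodes an adaptor of asymmetric division in neuroblasts, had 82303 progenitor counts and none in this table, and it lies inside Hs6st. The same was seen for cabut (cbt, a zinc finger transcription factor, 27048 progenitor counts), mEFTu1 (a mitochondrial elongation factor, 19001), eIF6 (17064), LysD (a lysozyme, 10915) and the proteasome ATPase Rpt1 (9585). A 0 for such a gene was thus no measure of its RNA in Swm IP or in input, and the values below speak only of the genes that could be counted. Of the genes in this paragraph, all but LysD were chosen after their values were seen.

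**Figure D1:**
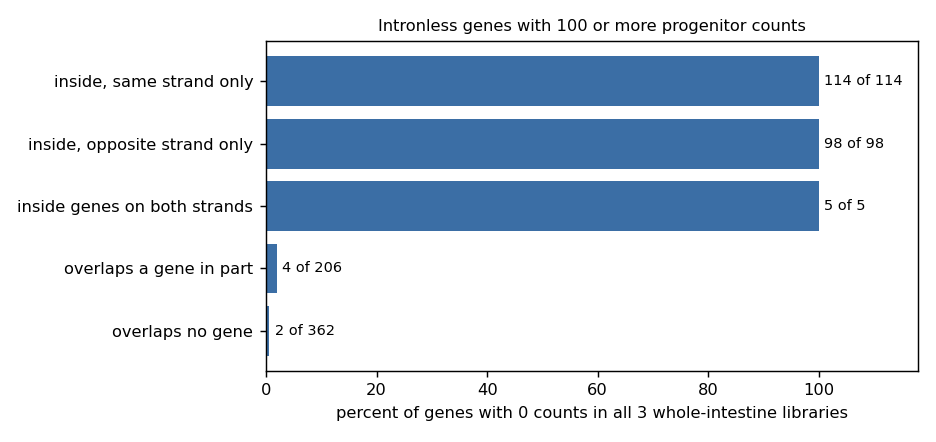
Percent of intronless genes (x axis) with 0 counts in all 3 whole-intestine libraries (Swm IP and input), by how the gene overlaps another annotated gene (y axis). The genes are those with at least 100 counts over the progenitor libraries; the bars of the genes inside another gene reach 100%, against 1.94% and 0.552% for the rest.

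In the Swm IP most of the intronless genes that could be tested stood below input. The test compared 2 libraries with 1, so the input library was assumed to vary like the Swm IP libraries. By edgeR's quasi-likelihood test with Benjamini-Hochberg adjustment at 0.05, 8 of the 661 were higher in Swm IP (1.21%) and 111 were lower (16.8%). Over all 8375 genes tested, 9.25% were higher and 8.97% lower. The median log2 ratio of Swm IP over input was -0.55 for the intronless genes, with quartiles at -1.19 and 0.24, and 0.0041 for all genes. Both Swm IP libraries lay below input for 399 of the 661 (60.4%) and above it for 141 (21.3%), against 41.7% and 40.0% of all genes tested. Scaling by library size alone, which shifts every gene alike, put the median of all genes at 0.29 and that of the intronless genes at -0.26.

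The ratio went with length. Its slope on log2 length was 0.50 per doubling among the intronless genes, a description across genes, which are not independent replicates. It was 0.53 in Swm IP replicate 1 and 0.37 in replicate 2. From 300 to 600 nt the median log2 ratio was -1.06 (47 genes), from 600 to 1000 nt -1.01 (158 genes), from 1000 to 1500 nt -0.79 (178 genes), from 1500 to 2500 nt -0.29 (190 genes), and over 2500 nt 0.42 (82 genes). The other genes without a colon had, at the same exonic lengths, medians of -1.48, -1.02, -0.62, -0.21 and 0.59, and a slope of 0.64, or 0.43 against the span. In each bin over 600 nt the intronless median thus lay within 0.18 of that of the other genes on the log2 scale. From 300 to 600 nt it lay 0.42 above, and up to 300 nt, with only 6 intronless and 3 other genes, 1.19 above. Close medians did not mean like calls over 2500 nt. There 3 of 82 intronless genes (3.66%) were higher and 4 were lower. Of the 3621 other genes over 2500 nt of exonic length, 710 (19.6%) were higher and 40 were lower. This bin has no upper edge, so lengths and counts within it were not matched. From 600 to 1000 nt, 2 of 158 intronless genes were higher and 42 lower, against 3 and 189 of 647 other genes. These differences were not tested. Of the 111 lower calls, 86 fell on genes of up to 1500 nt. With no filter on low counts the slope was 0.084 and the median 0.040.

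**Figure D2:**
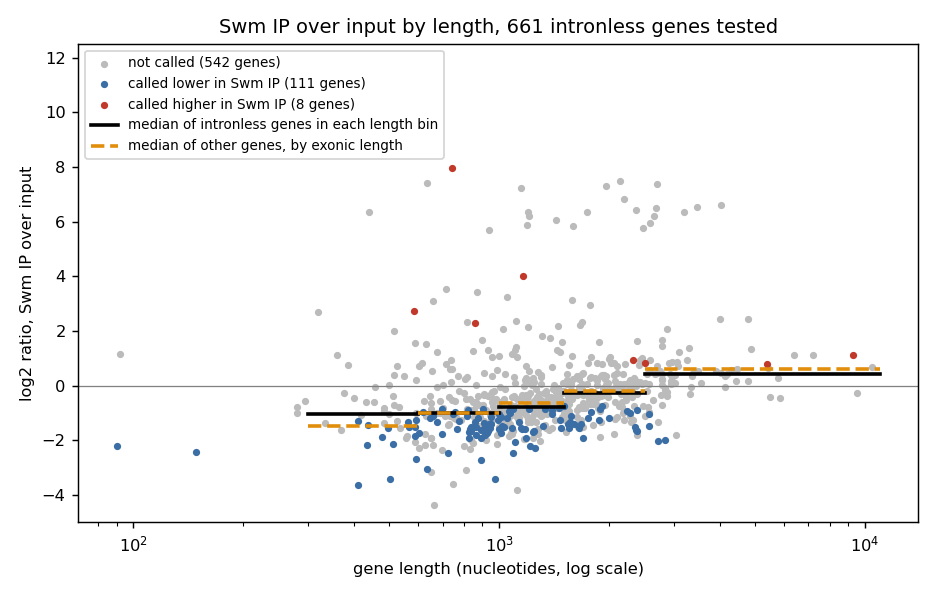
Log2 ratio of Swm IP (2 libraries) over input (1 library) on the y axis against gene length in nucleotides on a log x axis; each point is 1 of 661 intronless genes, coloured by the edgeR call, and lines give the medians per length bin over 300 nt. The medians of intronless genes climb to 0.42 over 2500 nt and run close to those of the other genes; points above 5 have 0 input counts.

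When the trend of the ratio with gene span was removed across all genes, 12 intronless genes were higher (1.82%) and 19 lower (2.87%), of which 6 and 19 also carried the call above. Over all genes in the same fit 1.54% were higher and 6.23% lower. Of the 8 higher calls, corto and Pp2B-14D lost theirs. DESeq2 called CNBP, corto and CG17108 of the 8, gave no adjusted p for Vm26Aa, and called 72 of the intronless genes lower.

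The 8 intronless genes higher in Swm IP fell into those abundant in both libraries and those nearly absent from input. CNBP, a zinc finger protein that binds single-stranded nucleic acids, had 447 and 467 CPM in Swm IP, against 257 CPM in input (log2 0.83, SE 0.26, edgeR adjusted p = 0.0155). corto, a chromatin protein that binds Polycomb and Trithorax group factors, had 173 and 145 CPM in Swm IP, against 73.2 CPM in input (log2 1.11, SE 0.29, edgeR adjusted p = 0.00253). laza, a lipid phosphate phosphatase known from photoreceptors, had 120 and 115 CPM in Swm IP and 61.1 CPM in input (log2 0.94, SE 0.31). Pp2B-14D, a calcineurin catalytic subunit, had 147 and 151 CPM in Swm IP and 87.1 CPM in input (log2 0.78, SE 0.29). In each of these the Swm IP libraries lay close together and above input.

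The other 4 had few input counts. CG17108 had 23.1 and 56.0 CPM in Swm IP and 2.47 CPM in input, from 10 counts (log2 4.01, SE 0.63, edgeR adjusted p = 5.08e-07). CG15870 had 3.46 and 21.9 CPM in Swm IP and 1.98 CPM in input, from 8 counts (log2 2.73, SE 0.95). CG4716 had 6.53 and 22.0 CPM in Swm IP and 2.97 CPM in input, from 12 counts (log2 2.30, SE 0.82). For both genes the Swm IP libraries differed more from each other than replicate 1 did from input, and replicate 2 was the highest library, as it was for CG17108. The 6 visceral muscle markers, 1 of them called higher, summed to 1452 and 6243 CPM in Swm IP and 1523 CPM in input, and their part in these ratios was not tested. The vitelline membrane gene Vm26Aa, which ovarian follicle cells express, had 6.92 and 4.94 CPM in Swm IP and 0 counts in input, so its ratio was at least 7.25, set against 3 counts in the input library. The 6 ovary and germline markers summed to 13.5 and 10.4 CPM in Swm IP and 0.495 CPM in input, with nos and Cp36 at 0 in all 3. Of these 6 markers 2 passed the filter. Vm26Aa is itself 1 of the 6 and gave much of their sum in Swm IP, so the sum is no separate measure of ovary RNA. The part of ovary RNA in these ratios was not tested.

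Digestive proteases made up much of the input reads of intronless genes, and they were lower in Swm IP. Of the 23 serine proteases tested of 26 in the list, 18 were lower (78.3%), none was higher, and the median log2 ratio was -1.40. Of the intronless genes tested 16.8% were lower, and of all genes 8.97%. For 22 of the 23 both Swm IP libraries lay below input, against 60.4% of the intronless genes and 41.7% of all genes tested. alphaTry, a trypsin, had 8619 and 9378 CPM in Swm IP, against 22499 CPM in input (log2 -1.32, SE 0.37, edgeR adjusted p = 0.00485). Jon25Bi, a Jonah protease, had 456 and 489 CPM in Swm IP, against 1658 CPM in input (log2 -1.81, SE 0.27, edgeR adjusted p = 2.55e-08). Jon25Biii had 385 and 633 CPM in Swm IP, against 1668 CPM in input (log2 -1.71, SE 0.27). Trypsin and Jonah genes occur as near-identical copies, so the split of reads among them is uncertain. With the length trend removed, 2 of the 23 were lower and the median was -0.50. Other intronless proteases, such as Phae1 and Phae2, are outside this list. The 9 enterocyte markers, 6 of them called lower and 1 higher, summed to 14103 and 15448 CPM in Swm IP and 32932 CPM in input. The proteases alphaTry and betaTry are among these markers, and alphaTry made up most of each sum. The sums therefore largely repeat the protease values, and the part of enterocyte content was not tested.

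Of 7 lysozyme, peptidoglycan amidase and antimicrobial peptide genes tested of 22, 5 were lower (71.4%). Of the intronless genes tested 16.8% were lower, and of all genes 8.97%. With the length trend removed 1 of the 7 was lower, and the median log2 ratio was -0.17. PGRP-SC1a, an amidase that cleaves bacterial peptidoglycan, had 18.1 and 25.5 CPM in Swm IP, against 79.7 CPM in input (log2 -1.85, SE 0.38, edgeR adjusted p = 6.79e-05), and lost its call with the length trend removed (log2 -0.72, SE 0.38, edgeR adjusted p = 0.323). Its neighbour and near copy PGRP-SC1b had 38.8 and 46.7 CPM in Swm IP, against 125 CPM in input, and kept its call. Of 15 heat shock genes 11 were tested and 4 were lower (36.4%), against the same shares of 16.8% and 8.97%. All 11 had both Swm IP libraries below input, against 60.4% of the intronless genes and 41.7% of all genes tested. Their median log2 ratio was -1.17. With the length trend removed 2 of the 11 were lower, Hsp70Ab and Hsp70Bb. Hsp70Ab had 86.9 and 80.6 CPM in Swm IP, against 268 CPM in input (log2 -1.68, SE 0.26, edgeR adjusted p = 1.22e-07). Hsp70Bb had 68.0 and 55.1 CPM in Swm IP, against 177 CPM in input. The Hsp70 genes are near-identical copies, and reads can be split among them.

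**Figure D3:**
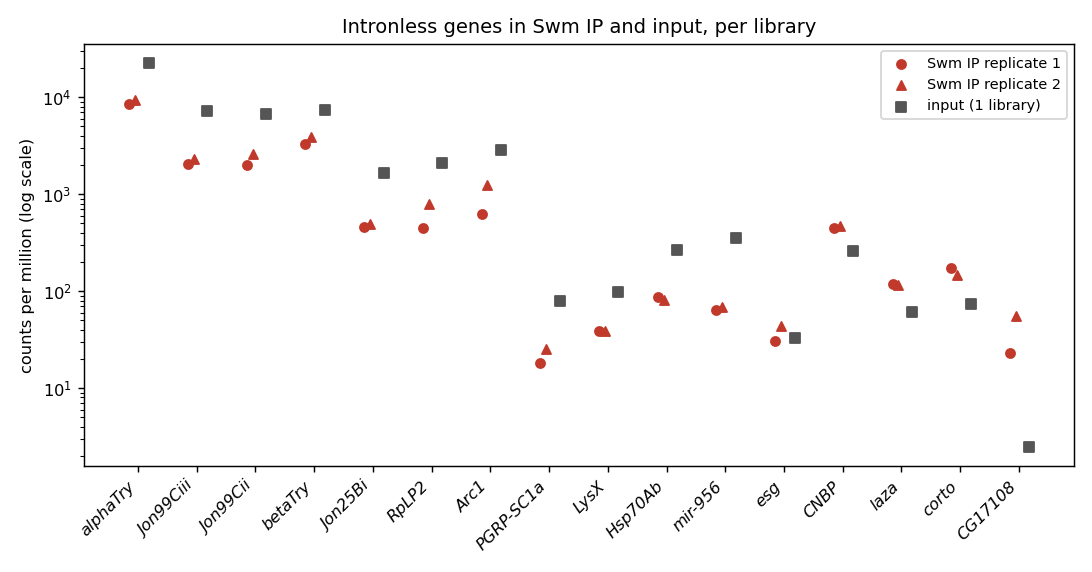
CPM on a log y axis for 16 intronless genes (x axis) in Swm IP replicate 1 (circles), Swm IP replicate 2 (triangles) and input (squares). alphaTry stands at 8619 and 9378 CPM in Swm IP against 22499 CPM in input, while CNBP, laza, corto and CG17108 stand higher in both Swm IP libraries.

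Among the genes with the lowest ratios, most had fewer than 100 counts in input. SLIRP2, named after an RNA-binding protein of mitochondria, had 1.54 and 0.439 CPM in Swm IP, against 10.6 CPM in input (log2 -3.64, SE 1.17, edgeR adjusted p = 0.0169). e(y)2, a subunit of the SAGA coactivator and of an mRNA export complex, had 2.69 and 0.220 CPM in Swm IP, against 12.4 CPM in input (log2 -3.42, SE 1.09). DESeq2 gave no adjusted p for SLIRP2 or e(y)2. CG12343 had 1.15 and 2.20 CPM in Swm IP, against 19.8 CPM in input (log2 -3.44, SE 0.83), and kept its call with the length trend removed. CG33169 (log2 -3.05), CG1304 (-2.71), Wdr82, which serves in histone methylation complexes (-2.47), and CG5056 (-2.28) were lower as well. Apart from CG12343, the genes named in this paragraph lost their call with the length trend removed, and DESeq2 called CG12343 and CG1304 of them.

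Ribosomal and respiratory chain genes stood below input, and none kept its call with the length trend removed. RpLP2, a P protein of the ribosomal stalk and the highest of all intronless genes per length in control progenitors, had 453 and 791 CPM in Swm IP, against 2089 CPM in input (log2 -1.74, SE 0.28, edgeR adjusted p = 1.01e-06). RpS15Ab had 2.31 and 3.19 CPM in Swm IP and 15.8 CPM in input (log2 -2.48, SE 0.84). These were the 2 tested of 6. Of the 9 mitochondrial ribosomal protein genes 1 was lower (11.1%, against 16.8% of the intronless genes tested), mRpL41 (log2 -2.70, SE 0.87). All 9 had both Swm IP libraries below input, against 60.4% of the intronless genes and 41.7% of all genes tested. The respiratory chain genes ATPsyngamma (log2 -0.83, SE 0.25) and ND-20 (log2 -0.86, SE 0.29) were lower, as the 2 tested of 11. With the length trend removed the median log2 ratio was -0.065 for the mitochondrial ribosomal genes and -0.21 for the respiratory chain genes. Of these lists DESeq2 called RpLP2 and no other gene.

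Of 3 microRNA genes tested, 2 were lower (66.7%), against 16.8% of the intronless genes tested. mir-956, a 148 nt gene at chr3L:11773731-11773878 (minus strand, BDGP6.54) that overlaps another gene, had 64.2 and 68.2 CPM in Swm IP, against 355 CPM in input (log2 -2.42, SE 0.26, edgeR adjusted p = 6.83e-15). With the length trend removed it stood at -0.19 (SE 0.26, edgeR adjusted p = 0.802) and was not called. mir-314 had 11.1 and 13.6 CPM in Swm IP, against 58.9 CPM in input (log2 -2.23, SE 0.44), and stood at 0.47 with the length trend removed. mir-317 had 4.23 and 3.63 CPM in Swm IP and 1.73 CPM in input and was not called. The libraries were of total RNA depleted of rRNA, so these counts are not counts of mature microRNAs.

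esg had 30.7 and 43.9 CPM in Swm IP and 33.1 CPM in input (log2 0.18, SE 0.42, edgeR adjusted p = 0.816), so input lay between the Swm IP libraries. Of 4 Enhancer of split and Bearded genes tested of 15, none was called by edgeR or DESeq2 or had an unadjusted p under 0.05, with log2 ratios between -1.01 and 0.45. SoxN, the other transcription factor tested, had 2.31 and 2.31 CPM in Swm IP and 0 counts in input, at least 3.11 times higher against 3 counts, and was not called. The cuticle genes Osi7 (0 input counts, at least 2.18-fold higher) and Twdlbeta (1 input count, ratio 15.9 with an exact 95% counting interval of 2.71 to 640) were not called, as the 2 tested of 21. The cytochrome P450 genes Cyp6a13 (log2 -0.30) and Cyp6t2Psi (1.22) were not called, nor was the remaining P450 gene tested. No gene of the chemoreceptor and odorant binding, seminal and testis, Turandot or apoptosis lists passed the filter in this table.

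In progenitors, the intronless genes that passed the test with swm RNAi were nearly all higher. By edgeR's quasi-likelihood test 34 of the 904 tested were higher (3.76%) and 1 was lower (0.111%), against 2.34% and 0.832% of all 8899 genes tested. The median log2 fold change was 0.12, against 0.033 for all genes. All 3 swm RNAi libraries lay above all 3 controls for 138 of the 904 (15.3%) and below them for 37 (4.09%), against 12.3% and 7.94% of all genes. Without swm RNAi replicates 1, 2 and 3 in turn 19, 20 and 23 were higher (1.96%, 2.11% and 2.40%). The share of all genes fell as well, to 1.21%, 1.31% and 1.44%. Of the 35 calls 17 held in all 6 fits that left out a library. The slope of the fold change on log2 length was -0.11 per doubling. The lone lower gene was Mics1, with 25.5, 13.5 and 14.5 CPM with swm RNAi, against 37.6, 45.5 and 44.9 CPM in control (log2 -1.26, SE 0.27, edgeR adjusted p = 0.0261). Its call was lost without control replicate 2 (edgeR adjusted p = 0.0796) and without swm RNAi replicates 2 (0.128) or 3 (0.138). Mics1 lies inside alpha-Est9 on the same strand (log2 -0.21, SE 0.17, edgeR adjusted p = 0.728), so their reads may not be told apart.

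Arc1 was the only intronless gene past both edgeR tests. It encodes a Gag-like protein that forms capsids and carries its own mRNA between cells at the fly neuromuscular junction. It had 2806, 2214 and 1655 CPM with swm RNAi, against 230, 356 and 318 CPM in control. Every swm RNAi library lay above every control, with a log2 fold change of 2.88 (SE 0.25, edgeR adjusted p = 9.2e-05). In Swm IP it had 631 and 1232 CPM, against 2854 CPM in input, both below it (log2 -1.61, SE 0.30, edgeR adjusted p = 4.65e-05), and this call held with the length trend removed (log2 -1.40, SE 0.30) but not with DESeq2 (adjusted p = 0.193). Its relative Arc2 had 57.4, 58.5 and 42.7 CPM with swm RNAi and 10.7, 17.2 and 19.0 CPM in control (log2 1.76, SE 0.25, edgeR adjusted p = 0.00264). Arc2 was not called in Swm IP, with 7.69 and 11.1 CPM, against 17.6 CPM in input.

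Glutathione S-transferase genes, which detoxify by coupling glutathione to reactive compounds, stood out among the calls, and this list was drawn up after their values were seen. Of 16 intronless ones 11 were tested, 4 were higher (36.4%) and all 11 fold changes were positive, with a median log2 of 1.31. Of the intronless genes tested 3.76% were higher, and of all genes 2.34%. In 8 of the 11 the swm RNAi libraries all lay above the controls, against 15.3% of the intronless genes and 12.3% of all genes. Picking the list by its values can raise its shares by construction. GstE6 had 149, 126 and 98.7 CPM with swm RNAi, against 8.64, 6.81 and 2.16 CPM in control (log2 4.41, SE 0.49, edgeR adjusted p = 0.00383). GstE1 had 43.1, 47.0 and 32.2 CPM with swm RNAi, against 10.5, 9.41 and 8.70 CPM in control (log2 2.09, SE 0.24, edgeR adjusted p = 0.000541). The groups did not overlap in either.

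GstD5 (log2 3.61, SE 0.82) and GstD3 (log2 0.77, SE 0.18) were also higher, but each kept its call in 1 of the 6 fits without a library, where the highest edgeR adjusted p was 0.187 for GstD5 and 0.272 for GstD3. GstD5 was called only without control replicate 1, and GstD3 only without control replicate 3. GstE3 (log2 2.49, SE 0.79) and GstE7 (log2 1.29, SE 0.46) were not called. The GstE and GstD genes lie in clusters of similar copies, so reads may be split among them. In Swm IP 2 of 11 were lower (18.2%), near the 16.8% of all intronless genes tested. They were GstE3 (log2 -0.97, SE 0.31) and GstE7 (log2 -1.58, SE 0.43), and GstE3 stood at 0.051 with the length trend removed. Neither kept its call there, and DESeq2 called neither.

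CG15784, CG8620 and kek1 were among the larger rises; CG15784 was chosen after its values were seen. CG15784 (chrX:5429571-5432526, plus strand, 1 exon, overlapping no other gene) had 2080, 1593 and 1255 CPM with swm RNAi, against 134, 188 and 162 CPM in control (log2 3.35, SE 0.24, edgeR adjusted p = 2.79e-05). In Swm IP it had 2103 and 2109 CPM, against 2022 CPM in input (log2 0.06, SE 0.31). CG8620 had 812, 622 and 484 CPM with swm RNAi, against 18.1, 72.1 and 58.0 CPM in control (log2 3.69, SE 0.53, edgeR adjusted p = 0.0152). Its call was lost without control replicate 3 (edgeR adjusted p = 0.0906), swm RNAi replicate 1 (0.113) or swm RNAi replicate 2 (0.0845). kek1, a leucine-rich transmembrane protein that restrains EGF receptor signalling, had 26.5, 24.6 and 20.0 CPM with swm RNAi, against 1.38, 1.91 and 1.08 CPM in control (log2 4.02, SE 0.36, edgeR adjusted p = 9.99e-05). In these 3 genes no swm RNAi library overlapped a control.

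**Figure D4:**
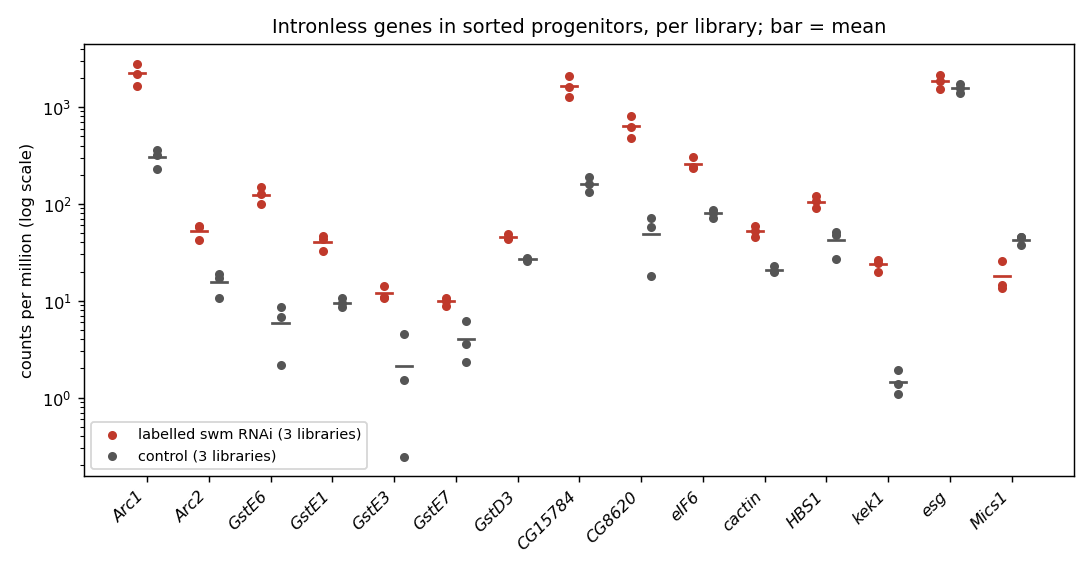
CPM on a log y axis for 15 intronless genes (x axis) in the 3 libraries labelled swm RNAi (red) and the 3 control libraries (grey); each point is a library and each short bar the mean of its group. Arc1, GstE6, CG15784, CG8620 and kek1 show no overlap between groups, esg overlaps, and Mics1 lies lower with swm RNAi.

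The genes of this paragraph were chosen after their values were seen. eIF6, which keeps the large ribosomal subunit from joining the small one too early, had 303, 232 and 241 CPM with swm RNAi, against 72.3, 86.2 and 80.5 CPM in control (log2 1.70, SE 0.17, edgeR adjusted p = 0.000255). cactin, known for binding the NF-kB inhibitor Cactus and for a role in splicing, had 59.7, 51.9 and 45.7 CPM with swm RNAi, against 22.6, 19.6 and 20.4 CPM in control (log2 1.33, SE 0.19, edgeR adjusted p = 0.00266). fzo, a mitofusin of spermatids, had 19.7, 27.5 and 21.5 CPM with swm RNAi, against 6.34, 4.36 and 5.21 CPM in control (log2 2.11, SE 0.30). All 3 rose with no overlap between groups, and kept their call in every fit without a library. fzo lies inside cnc (log2 0.70, SE 0.25, edgeR adjusted p = 0.228) and eIF6 inside ytr (log2 0.30, SE 0.15, edgeR adjusted p = 0.492), each on the same strand. Reads of fzo and cnc, or of eIF6 and ytr, may therefore not be told apart. HBS1, which rescues stalled ribosomes, was higher too (log2 1.33, SE 0.24, edgeR adjusted p = 0.0116), with an adjusted p of 0.0582 without swm RNAi replicate 1. CG3448 (log2 3.21), CG10916 (1.94), CG17904 (1.64), Nepl3 (1.55) and CG5590 (1.19) kept their call in every such fit as well, as did Arc1, Arc2, GstE1, GstE6, CG15784 and kek1.

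Some called genes share their place with another changed gene. CG5267 (log2 3.92, SE 0.50), CG42392 (4.31, SE 0.70) and CG34189 (4.56, SE 0.93) all lie inside unc-104, a kinesin gene that was itself higher with swm RNAi (log2 4.13, SE 0.30, edgeR adjusted p = 3.43e-05). CG42392 lies on its strand and the others on the opposite one, and since the use of strand in counting is not stated in the labels, reads of these genes and of unc-104 may not be told apart. CG5267 kept its call in all 6 fits without a library. CG42392 lost it without swm RNAi replicate 1, 2 or 3 (edgeR adjusted p = 0.0977, 0.0798 and 0.0682), and CG34189 without any of these (0.184, 0.181 and 0.157) or without control replicate 1 (0.143). CG14835 lies inside CG42458, on the opposite strand, which was also higher (log2 6.04, SE 1.1, edgeR adjusted p = 0.0192). CG14835 had 8.49, 6.53 and 4.06 CPM with swm RNAi and 0 counts in control, at least 128-fold higher against 3 counts over the control group. CG14695 had 18.9, 14.5 and 9.50 CPM with swm RNAi and 3 counts over the control libraries, a ratio of 287 with an exact 95% counting interval of 97.9 to 1397. It overlaps Sodh2 in part, on the opposite strand, and Sodh2 was not among the genes tested, so no change of Sodh2 is known. Nepl3 overlaps His3.3A in part, on the opposite strand, and His3.3A was higher as well (log2 1.09, SE 0.19, edgeR adjusted p = 0.00813). Of the 394 tested genes that overlap no other gene, 17 were higher (4.31%) and none was lower, against 2.34% and 0.832% of all genes.

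In Swm IP, 24 of the 34 genes higher with swm RNAi could be tested, and apart from Arc1, which was lower, none was called. Of all intronless genes tested there 1.21% were higher and 16.8% lower, so higher calls were rare throughout. Of all genes 9.25% were higher and 8.97% lower. For example, cactin had 21.5 and 28.8 CPM in Swm IP and 20.8 CPM in input (log2 0.29, SE 0.50). GstE6 had 1.92 and 7.80 CPM in Swm IP and 11.9 CPM in input (log2 -1.19, SE 0.82). The intervals are wide at these counts, and a missing call is no sign that the levels were equal.

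Of the intronless genes with the highest level per length in control progenitors, RpLP2, Hsp70Bb, esg and E(spl)malpha-BFM were not called. esg had 1530, 1873 and 2154 CPM with swm RNAi and 1726, 1561 and 1399 CPM in control (log2 0.25, SE 0.18, edgeR adjusted p = 0.705), and its groups overlapped. Hsp70Bb had 4141, 3531 and 4576 CPM with swm RNAi and 2804, 2998 and 1483 CPM in control, with no overlap (log2 0.75, SE 0.25, edgeR adjusted p = 0.184). Hsp70Ab overlapped between groups (log2 0.42, SE 0.29), and none of the 12 heat shock genes tested was called (edgeR; 2 had an unadjusted p under 0.05, and DESeq2 called 1). E(spl)malpha-BFM, a Bearded-family gene, had 496, 468 and 512 CPM with swm RNAi and 412, 443 and 236 CPM in control (log2 0.44, SE 0.23). E(spl)m3-HLH, a bHLH repressor and target of Notch, had 608, 677 and 636 CPM with swm RNAi and 615, 637 and 370 CPM in control (log2 0.25, SE 0.22). None of the 6 genes tested of this list was called (edgeR; 1 had an unadjusted p under 0.05, and DESeq2 called 1), nor was the proneural gene sc (log2 -0.40, SE 0.26). RpLP2 had 3688, 3254 and 3389 CPM with swm RNAi and 2472, 3912 and 2702 CPM in control (log2 0.19, SE 0.20), and RpS15Ab was also not called (log2 0.08, SE 0.29).

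Enterocyte genes were uneven among the swm RNAi libraries. alphaTry had 190, 166 and 473 CPM with swm RNAi and 72.3, 114 and 146 CPM in control (log2 1.32, SE 0.46, edgeR adjusted p = 0.277). Jon99Ciii had 133, 73.4 and 299 CPM with swm RNAi and 44.9, 79.0 and 203 CPM in control. LysC had 77.8, 89.2 and 340 CPM with swm RNAi and 26.0, 41.1 and 31.1 CPM in control (log2 2.37, SE 0.67, edgeR adjusted p = 0.21), and its neighbour LysD stood at 1.13 (SE 0.57). In each of these swm RNAi replicate 3 was the highest library, and none of the 20 serine proteases or of the 8 lysozyme, amidase and antimicrobial peptide genes tested was called. At an unadjusted p under 0.05 edgeR had 1 of the proteases and 2 of the immune genes, and DESeq2 called 1 of each list. The 9 enterocyte markers summed to 559, 522 and 1031 CPM with swm RNAi and 435, 461 and 562 CPM in control. alphaTry and betaTry are among these markers, so the sums in part repeat the protease values. The 7 enteroendocrine markers, of which 1 was higher, summed to 35.5, 41.0 and 39.9 CPM with swm RNAi and 6.54, 11.2 and 8.11 CPM in control. Their part in the changes of intronless genes was not tested.

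Other lists gave no call with swm RNAi. Of the 24 microRNA genes tested edgeR called none, with 4 at an unadjusted p under 0.05, while DESeq2 called 2. mir-956 stood at a log2 fold change of 2.08 (SE 0.51, edgeR adjusted p = 0.0575), mir-317 at 0.95 (SE 0.46) and mir-967 at 0.0011 (SE 1.11). The 9 mitochondrial ribosomal protein genes lay between -0.63 and 0.35, with mRpS22 at 0.04 and mRpS29 at -0.17. The 5 respiratory chain genes lay between -0.77 and 0.04, with ATPsyngamma at -0.15 and ND-20 at -0.0018. Among 4 cytochrome P450 genes Cyp6a13 stood at 0.04 and Cyp6t1 at 0.28. Of 6 chemoreceptor and odorant binding genes, Gr94a stood at 1.93 (SE 1.02) and Ir62a at -0.36 (SE 0.31). The seminal genes Acp62F (1.06, SE 1.90) and Sfp65A (0.51, SE 1.55) and the eggshell genes Vm26Aa (-1.39, SE 1.66) and Vm34Ca (-0.12, SE 1.82), with the third eggshell gene tested, were not called. The 3 apoptosis inducers, rpr among them, the Turandot gene and the 21 cuticle genes did not pass the filter. None of the genes tested in the ribosomal, respiratory, P450, chemoreceptor, seminal and eggshell lists had an unadjusted p under 0.05, and DESeq2 called none.

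As a share of all counts, intronless genes made up 5.43% and 6.37% of the Swm IP libraries and 10.5% of input. The 26 serine proteases of the list, which leaves out others such as Phae1 and Phae2, were 2.37% and 2.95% of the Swm IP libraries and 5.83% of input. In progenitors the share was 4.71%, 4.54% and 4.86% with swm RNAi, against 3.64%, 4.21% and 3.59% in control. Every swm RNAi library lay above every control, and the exact two-sided permutation test gave p = 0.1, the smallest that 3 against 3 libraries allow. Without the 34 genes called higher, the share was 3.97%, 3.93% and 4.36% with swm RNAi, against 3.55%, 4.08% and 3.48% in control. There the groups overlapped. Those genes were picked from the same libraries, so leaving them out shrinks the difference by construction.

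**Figure D5:**
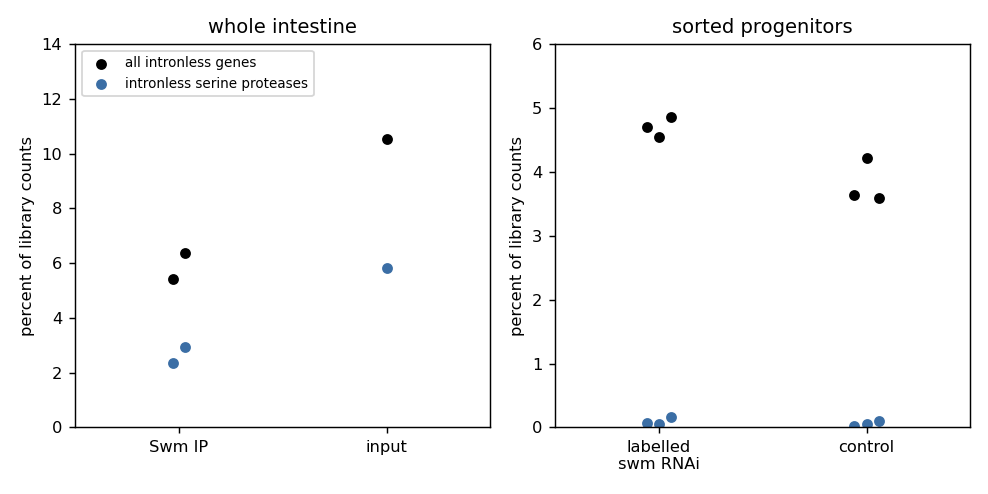
Percent of library counts (y axis) in all intronless genes (black) and in the 26 serine proteases of the list (blue). Swm IP and input from whole intestine are on the left, and libraries labelled swm RNAi and control from sorted progenitors on the right. Each point is a library. Intronless genes take 5.43% and 6.37% of Swm IP against 10.5% of input, and 4.54% to 4.86% with swm RNAi against 3.59% to 4.21% in control.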

How the data were processed

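Raw read counts per gene were deposited by the authors for progenitor RNA-seq and for Swm IP and input. Tools listed in the submitters' processing notes were STAR 2.7.3a, cutadapt 2.9, Subread 2.0.0, DESeq2, SAMtools 1.10 and featureCounts, with genome build, annotation and strand setting not given in the sources used here. A gene length stands beside the counts, per the file headers, and lengths were exonic in the RNA-seq table and spans in the other, so intronic reads can enter the span-based counts of genes with introns. The authors' deposited tables of log2 fold changes and adjusted p-values were used for coordinates and counts of calls; 9 per-sample columns there were not used. Coordinates deposited by the authors equalled the Ensembl BDGP6.54 annotation for 8585 of 8600 genes (99.8%). A nameless row was excluded from each count table.

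Genes were filtered with filterByExpr (minimum count 10), scaled by TMM and tested with edgeR 4.0.16 (R 4.3.3; quasi-likelihood, robust, Benjamini-Hochberg over all genes, 0.05), each comparison on its own libraries; fits were tested on simulated data. CPM uses TMM-scaled library sizes. Bounds use 3 counts over the group, and intervals cover counting error only. Alternatives were DESeq2 1.42.0, other scalings and filters, a loess offset on span (0.3), subsets of members and leaving out libraries. Same-numbered swm RNAi and control libraries did not deviate together, so numbers were not taken as pairs. Named genes were the largest changes past the test with a group mean of at least 5 CPM and no overlap between groups, the leading members of each list, and a few fixed genes. Members, lists and this rule were chosen with earlier results of these data known, and the glutathione S-transferase list after its values were seen.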

Additional observations from a re-analysis of the deposited data

How the results depend on the processing

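The numbers that follow are for intronless genes. In Swm IP, DESeq2 called 3 higher (0.454%) and 72 lower (10.9%), in place of 8 and 111 by edgeR, against 6.39% and 4.74% of all genes. Removing the length trend left 19 lower, a median log2 ratio of 0.087 and, by construction, a slope of 0.043. Library sizes alone gave 70 lower (10.6%, against 4.98% of all genes) and a median of -0.26. Without a filter the median was 0.040 and the slope 0.084; genes overlapping no other gene had a median of -0.43. GstE3 (0.051) and mir-314 (0.47) turned positive with the trend removed. Leaving out a Swm IP library gave medians of -0.69 to -0.48 and slopes of 0.35 to 0.61, with no test, since no residual degree of freedom was left. With swm RNAi, no filter gave 53 higher and 9 lower (2.71% and 1.36% of all genes), DESeq2 gave 47 higher (5.20%) and 7 lower (0.774%), against 3.60% and 1.67% of all genes, and genes overlapping no other gave 17 higher and 0 lower (edgeR; 49 at an unadjusted p under 0.05 in either direction). Medians were 0.087 with RLE size factors, 0.056 with library sizes alone, 0.17 without a filter and 0.17 for genes overlapping no other. The replicate number as a block gave 35 higher (3.87%), 2 lower (0.221%) and a median of 0.19, against 2.37% and 0.854% of all genes. Same-numbered libraries correlated at -0.063, -0.049 and 0.0040 in their deviations from group means, so this pairing is only a number. Leaving out a library gave 19 to 37 higher (1.96% to 3.82%), 0 to 4 lower and medians of 0.093 to 0.19. Of all genes 1.21% to 2.93% were higher and 0.258% to 1.23% lower in these fits. The authors' deposited tables had 3 higher and 70 lower of 484 in Swm IP (0.620% and 14.5%, against 7.26% and 5.74% of all genes), and 45 higher and 6 lower of 1032 with swm RNAi (4.36% and 0.581%, against 3.15% and 1.45% of all genes). The cause of these differences was not tested, also where a sentence names the trend. Precision in Swm IP is limited by 1 input library and by the depth of the smaller Swm IP library.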

Other observations

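Among intronless genes lower in Swm IP with the length trend removed, several outside the named groups are digestive or immune: the amylases Amy-p (755 and 819 CPM in Swm IP, 2097 CPM in input, log2 with the trend removed -0.92, SE 0.28) and Amy-d (-0.88, SE 0.25), and Diedel3, of a family of secreted immune regulators. Diedel3 had 135 and 146 CPM in Swm IP, against 572 CPM in input, with a log2 ratio of -2.02 (SE 0.24, edgeR adjusted p = 6.3e-12) and of -1.89 (SE 0.24) with the trend removed. The protease genes Phae1 and Phae2, Jon99Ciii and Jon25Bi also kept their call, as did Vps11, a subunit of the HOPS tethering complex for late endosomes (log2 -1.98, SE 0.60). These genes were chosen after their values were seen.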
